A study of Mus musculus with 17 samples.

Results

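The genes of MHC class I antigen presentation were compared between the colons of mice exposed to pyridostigmine bromide (PB) and those of mice given water. The 10 genes, H2-K1, H2-D1, H2-T23, H2-Q4, B2m, Tap1, Tap2, Tapbp, Erap1 and Nlrc5, were taken by their symbols from a table of gene counts with 23719 entries, and all 10 passed the filter on low counts. PB is a reversible inhibitor of acetylcholinesterase, and the design asked how an exposure that had ended left the colon and its motility. RNA was sequenced from explants of 17 colons, with 1 library of counts for each. The Control group held 9 colons of male C57BL/6 mice that drank water. The GWI group, named after Gulf War illness, held 8 colons of male C57BL/6 mice that received PB in the drinking water at 2 mg/kg for 7 days, with 21 days without PB before the tissue was taken. All mice were 32 to 34 weeks old. The model is limited to 1 agent, 1 sex, 1 strain and 1 time after exposure, and an explant holds every layer of the colon wall in unknown proportion.

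MHC class I molecules display peptides from inside a cell on its surface, where CD8 T cells and natural killer (NK) cells read them. Proteasomes cut proteins into peptides, the TAP transporter carries the peptides into the endoplasmic reticulum, a peptidase trims them there, and a loading complex fits them onto a heavy chain bound to beta-2 microglobulin. In the gut, epithelial cells carry class I molecules as leukocytes do, and interferons are known to raise the genes of the whole pathway together.

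The total count per colon was 16744096 to 20741212 in the Control group and 16293537 to 18389686 in the GWI group. Levels are given as CPM (cpm of edgeR), the count of a gene divided by the size of its library and brought to a common scale, with library sizes scaled by the trimmed mean of M-values (TMM), with the standard deviation (SD) over 9 Control or 8 GWI colons. Log2 fold changes are GWI minus Control with their standard error (SE), and a gene is called at an adjusted p under 0.05. The 11 markers listed for colon epithelium, some of which other gut epithelia express too, summed to 26850 ± 6418 CPM in Control and 29860 ± 6323 CPM in GWI colons, led by Car1 in both groups, and none of them was at 0.

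A few Control libraries stood apart. In Control 9, the 10 most abundant genes took 23.1% of the counts, against 9.72% to 17.3% in the other Control and 10.96% to 12.75% in the GWI colons. Control 6 and Control 7 held 4 genes of the small intestine far above the other 15 colons, with Fabp6 at 119 and 314 CPM against 0.631 to 6.90 CPM, and Defa24 at 60.4 and 120.0 CPM against 0 to 0.623 CPM. Whether these explants held small intestine could not be settled from the counts, so the colon label is open to doubt for these 2 of 9 Control colons. Fits without Control 6 and Control 7 are given where they ended the call of a class I gene or of a gene on a pathway list named here.

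Of the 14146 genes tested, 1889 were higher (13.4%) and 1903 lower (13.5%) in GWI colons, so 26.8% were called in either direction. Among the 10 class I genes, 1 was called, H2-K1, which was higher. That share, 1 of 10, lies below the share of all genes. Their median log2 fold change was 0.11, against -0.06 for all tested genes, with 7 values above and 3 below 0. The median was 0.02 with upper-quartile factors (5 values above 0) and -0.07 with a muscle minus epithelium marker score as a covariate (4 above 0), where that of all genes was 0.04. That score was itself -0.45 to 2.74 in Control and -1.98 to 0.09 in GWI colons. With it as a covariate, tissue composition and group can therefore hardly be told apart. The SE of the log2 fold change of H2-K1 went from 0.13 to 0.21 there. No class I gene was called lower by edgeR's quasi-likelihood test. The count of lower genes was also 0 at an unadjusted p under 0.05, with the DESeq2 Wald test and with limma-voom. At an unadjusted p under 0.05, 3 of the 10 were higher, while 5851 of the 14146 genes passed in either direction, a larger share. The balance of calls over all genes depends on the scaling: with upper-quartile factors, 28.9% of the called genes were higher in GWI colons, against 49.8% with TMM, and the median log2 fold change of all genes was -0.15.

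**Figure D1:**
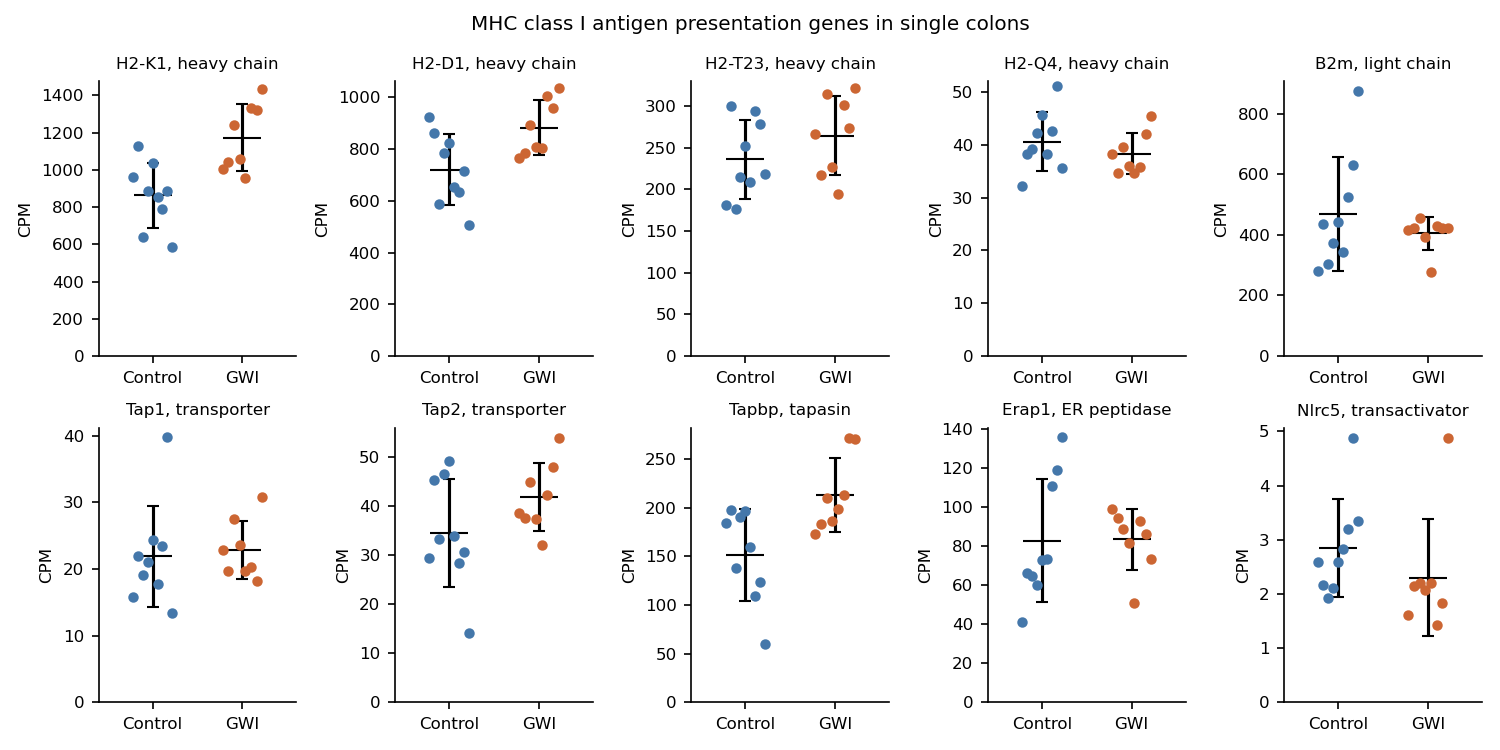
Level of each class I gene in single colons, in CPM from 0, with 9 Control colons (blue) and 8 GWI colons (orange) in order of their number, a black dash for the mean and a bar for ± 1 SD. H2-K1 of every GWI colon lies above the Control median of 887 CPM, while for H2-Q4, B2m, Tap1, Erap1 and Nlrc5 the highest Control colon is at or above the highest GWI colon.

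H2-K1 and H2-D1 encode the classical heavy chains, which present peptides to CD8 T cells. H2-K1 (ENSMUSG00000061232.16, chromosome 17, 33996017 to 34000347, minus strand) had a lowest, median and highest level of 585, 887 and 1130 CPM in Control colons and of 955, 1150 and 1433 CPM in GWI colons. All 8 GWI colons lay above the Control median and 4 above every Control colon, so the groups overlapped in part. The group means were 864 ± 175 and 1173 ± 179 CPM, a log2 fold change of 0.44 (SE 0.13, edgeR's quasi-likelihood F test under Benjamini-Hochberg adjustment, adjusted p = 0.0228). The call for H2-K1 by edgeR's quasi-likelihood test ended with a muscle minus epithelium marker score as a covariate (Benjamini-Hochberg adjusted p = 0.232), with a leukocyte marker score (0.0705), with upper-quartile factors (0.0586) and without Control 6 and Control 7 (0.0591), while its log2 fold change was 0.35 to 0.42 in these 4. Over 12 alternatives of scaling, filter, tool, covariate, replicate block and colons its adjusted p was 0.00737 to 0.232 (edgeR's quasi-likelihood test, DESeq2 or limma-voom, Benjamini-Hochberg). It was under 0.05 in 7 of the 12, the replicate block also ending the call. With each of the 17 colons left out in turn, its adjusted p by edgeR's quasi-likelihood test was under 0.05 (0.0147 to 0.0481).

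H2-D1 (ENSMUSG00000073411.11, chromosome 17, 35262730 to 35267499, plus strand) ranged over 507, 714 and 925 CPM as lowest, median and highest in Control colons and over 765, 851 and 1035 CPM in GWI colons. Here too all 8 GWI colons were above the Control median, and 3 were above every Control colon. Its log2 fold change of 0.29 (SE 0.12) did not pass edgeR's quasi-likelihood F test under Benjamini-Hochberg adjustment (adjusted p = 0.0826), and it passed with limma-voom (0.0389) and without Control 1 (0.0348).

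H2-T23 and H2-Q4 encode non-classical heavy chains. H2-T23 (ENSMUSG00000067212.8, chromosome 17, 36029773 to 36032855, minus strand) makes Qa-1, which presents leader peptides of other class I molecules to the NK cell receptor CD94/NKG2. Its level was 176, 218 and 300.1 CPM as lowest, median and highest in Control colons and 194, 270.4 and 322.5 CPM in GWI colons. The groups covered nearly the same range, with 3 GWI colons above every Control colon and 2 below the Control median, and the log2 fold change was 0.16 (SE 0.13, adjusted p = 0.359 by edgeR's quasi-likelihood F test, Benjamini-Hochberg adjusted). H2-Q4 (ENSMUSG00000035929.11, chromosome 17, 35379617 to 35385290, plus strand), of the Q region, was at 32.2, 39.3 and 51.1 CPM in Control and at 34.6, 37.2 and 45.4 CPM in GWI colons. The GWI colons all lay inside the Control range, with a log2 fold change of -0.08 (SE 0.090, adjusted p = 0.495 by the same edgeR quasi-likelihood test and Benjamini-Hochberg adjustment). That of H2-Q4 was -0.12 to -0.04 with 1 colon left out and -0.18 with upper-quartile factors.

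B2m encodes beta-2 microglobulin, the light chain that every one of these heavy chains needs to fold and to reach the surface. B2m (ENSMUSG00000060802.8, chromosome 2, 122147686 to 122153083, plus strand) had a lowest, median and highest level of 280.0, 434 and 876 CPM in Control colons and of 277, 422 and 455 CPM in GWI colons. The Control colons spread widely, with Control 9 at 876, Control 8 at 629 and Control 1 at 280.0 CPM, while 7 of the 8 GWI colons lay between 391 and 455 CPM and GWI 5 stood alone at 277 CPM. The log2 fold change was -0.21 (SE 0.19, adjusted p = 0.427 by edgeR's quasi-likelihood F test, Benjamini-Hochberg adjusted), and -0.04 without Control 9. With the muscle minus epithelium score as a covariate, B2m was called lower by edgeR's quasi-likelihood F test, Benjamini-Hochberg adjusted (log2 fold change -0.74, adjusted p = 0.0460), in 1 of 12 alternatives.

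Tap1 and Tap2 encode the subunits of the peptide transporter. Tap1 (ENSMUSG00000037321.17, chromosome 17, 34187553 to 34197225, plus strand) was at 13.5, 21.1 and 39.8 CPM as lowest, median and highest in Control colons and at 18.2, 21.6 and 30.9 CPM in GWI colons. The highest value was that of Control 8, and the GWI colons split evenly, 4 above and 4 below the Control median. The log2 fold change was 0.06 (SE 0.18, adjusted p = 0.812 by edgeR's quasi-likelihood F test, Benjamini-Hochberg adjusted), and it was negative with upper-quartile factors (-0.03).

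Tap2 (ENSMUSG00000024339.12, chromosome 17, 34203527 to 34216321, plus strand) was at 14.2, 33.2 and 49.2 CPM in Control and at 32.1, 40.4 and 53.9 CPM in GWI colons. The lowest colon of all was Control 9, and 7 of 8 GWI colons were above the Control median. The log2 fold change of 0.28 (SE 0.18) did not pass edgeR's quasi-likelihood F test under Benjamini-Hochberg adjustment (adjusted p = 0.260). It was 0.18 without Control 9, and 0.02 to 0.46 over the 12 alternatives.

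Tapbp encodes tapasin, the chaperone that bridges TAP to empty class I molecules and edits their peptides. Tapbp (ENSMUSG00000024308.15, chromosome 17, 33915899 to 33929292, plus strand) was at 60.2, 159.6 and 197.6 CPM as lowest, median and highest in Control colons and at 173, 204.5 and 271 CPM in GWI colons. All 8 GWI colons were above the Control median and 5 were above every Control colon, with Control 9 far below all others. Its log2 fold change, 0.50 (SE 0.19), missed the threshold of edgeR's quasi-likelihood F test under Benjamini-Hochberg adjustment (adjusted p = 0.0581). It passed with the DESeq2 Wald test (adjusted p = 0.0414) and, in edgeR's quasi-likelihood F test under Benjamini-Hochberg adjustment, without Control 1 (0.0460), Control 2 (0.0454) or Control 9 (0.0332).

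Erap1 encodes the aminopeptidase that trims peptides inside the endoplasmic reticulum. Erap1 (ENSMUSG00000021583.7, chromosome 13, 74639568 to 74693201, plus strand) was at 41.1, 73.1 and 136 CPM in Control and at 50.9, 87.8 and 99.0 CPM in GWI colons. The GWI colons lay inside the Control range, whose ends were Control 1 and Control 9. The log2 fold change was 0.01 (SE 0.20, adjusted p = 0.967 by edgeR's quasi-likelihood F test, Benjamini-Hochberg adjusted). Its sign turned with the scaling and the covariates, from -0.46 with the muscle minus epithelium score to 0.29 with limma-voom, where Erap1 was called higher (Benjamini-Hochberg adjusted p = 0.0432).

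Nlrc5 encodes the transactivator that binds class I promoters and raises the heavy chains, B2m and the TAP genes. Nlrc5 (ENSMUSG00000074151.13, chromosome 8, 94434356 to 94527272, plus strand) was the least abundant of the 10, at 1.92, 2.60 and 4.88 CPM as lowest, median and highest in Control colons and at 1.43, 2.11 and 4.88 CPM in GWI colons, from 37 to 94 counts per Control colon. Of the GWI colons, 3 were below every Control colon and 7 below the Control median, while GWI 8 reached the highest Control colon, Control 8. The log2 fold change was -0.31 (SE 0.24, adjusted p = 0.339 by edgeR's quasi-likelihood F test, Benjamini-Hochberg adjusted). Without GWI 8 it was -0.56, and Nlrc5 was called lower by the same edgeR quasi-likelihood F test and Benjamini-Hochberg adjustment (adjusted p = 0.0442). With 1 colon left out, the log2 fold change was -0.56 to -0.18. The highest adjusted p by that edgeR test was 0.583, without Control 8.

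The level of Nlrc5 was set against that of the 9 other genes over the 17 colons, as log2 CPM. The largest Pearson correlation was with H2-Q4 (r = 0.53, permutation p = 0.0280, Benjamini-Hochberg adjusted over 9 genes p = 0.252; Spearman's rho = 0.32, permutation p = 0.206, adjusted p = 0.386). With H2-K1, r was -0.18 (permutation p = 0.486, adjusted p = 0.523) and rho was -0.32 (permutation p = 0.206, adjusted p = 0.386). None of the 9 adjusted permutation p-values of r was under 0.05 over all 17 colons, within Control or within GWI colons. By rank, Erap1 followed Nlrc5 within the 9 Control colons (rho = 0.87, exact permutation p = 0.00451, adjusted p = 0.0406), but not within the 8 GWI colons (rho = -0.67, exact permutation p = 0.0831, adjusted p = 0.748). Without Control 8 and GWI 8, the colons farthest from the Nlrc5 median, r was below 0 with adjusted permutation p = 0.0457 for each of H2-K1 (-0.59), H2-D1 (-0.60), Tap2 (-0.61) and Tapbp (-0.65), but by rank the adjusted permutation p was 0.283 to 0.364. Group means were not removed in these correlations, which therefore also carry the difference between the groups. No relation of Nlrc5 with these 4 genes held with and without those colons.

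Levels can be set against each other only per length, here per kilobase of merged exons. B2m was the highest, at 509 ± 165 CPM per kilobase over the 17 colons, followed by H2-K1 at 344 ± 79.7 and H2-D1 at 309 ± 56.6. B2m was above H2-K1 in 15 of 17 colons and H2-K1 above H2-D1 in 14 of 17, although the latter means differ by less than their SDs. H2-T23 followed at 86.4 ± 16.7, Tapbp at 49.7 ± 14.5 and H2-Q4 at 15.2 ± 1.87 CPM per kilobase, each above the next in all 17 colons, except that H2-Q4 was above Erap1 in 16. Erap1 at 11.4 ± 3.36 and Tap2 at 10.0 ± 2.59 CPM per kilobase did not differ beyond their spread, with Erap1 above Tap2 in 10 of 17 colons. Tap1 was at 4.08 ± 1.12, below Tap2 in every colon, although the encoded proteins pair in equal numbers. Nlrc5 was last at 0.305 ± 0.118 CPM per kilobase.

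How the 10 genes varied together was described after their values were seen, for all 45 pairs, with the mean of each group removed from the log2 CPM. By Pearson's r with a permutation test within groups and Benjamini-Hochberg adjustment over the 45 pairs, 9 pairs passed with r above 0 and 1 pair with r below 0. H2-K1 and H2-D1 were closest (r = 0.93, permutation p = 1e-05, the smallest that 100000 resamples can give, adjusted p = 0.00045; rank correlation 0.93, permutation p = 1e-05). Tap2 and Tapbp followed (r = 0.91, permutation p = 4e-05, adjusted p = 0.00075; rank correlation 0.79, permutation p = 0.00074). All 6 pairs among H2-K1, H2-D1, Tap2 and Tapbp had r from 0.73 to 0.93, although H2-D1 with Tap2 did not pass by rank (rank correlation 0.59, permutation p = 0.0205, adjusted p = 0.0839).

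B2m was closest to Erap1 (r = 0.91, permutation p = 5e-05, adjusted p = 0.00075, and rank correlation 0.70, permutation p = 0.00413), and r was 0.92 in Control and 0.89 in GWI colons. By rank B2m also passed with H2-T23 (rank correlation 0.68, permutation p = 0.0062, adjusted p = 0.0349), but not by r (0.56, permutation p = 0.0248, adjusted p = 0.084). Without Control 9, r of B2m was 0.82 with H2-T23, 0.75 with Tap1 and 0.72 with H2-Q4, against 0.56, 0.19 and 0.34 with it. B2m and H2-K1, whose proteins form 1 molecule, had r = -0.15 (permutation p = 0.636, adjusted p = 0.682; rank correlation 0.13, permutation p = 0.647). That r was -0.35 in Control and 0.59 in GWI colons, and 0.33 without Control 9. The opposite pair was Tapbp and Erap1 (r = -0.68, permutation p = 0.00783, adjusted p = 0.0391; rank correlation -0.59, permutation p = 0.0203, adjusted p = 0.0839). It rests in part on single colons, since r was -0.80 in Control and -0.17 in GWI colons and -0.55 without Control 9. For H2-K1 with H2-D1, r stayed at 0.87 without the 2 colons farthest from the H2-K1 median, and for B2m with Erap1 at 0.86 without the 2 farthest from the B2m median.

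**Figure D2:**
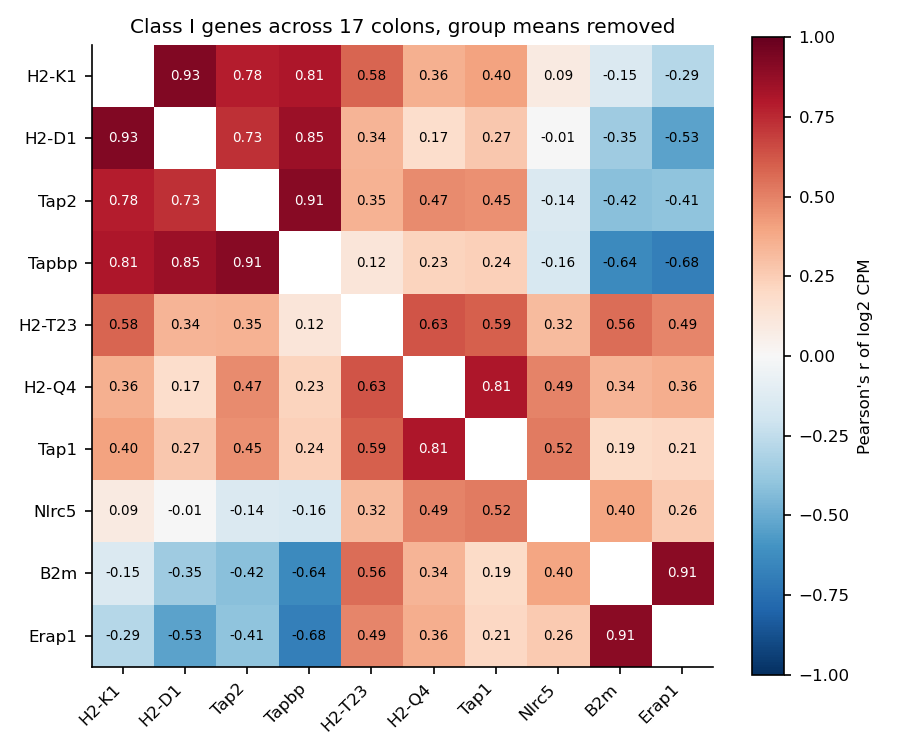
Pearson's r of log2 CPM between the class I genes over 17 colons after the group means were removed, from -1 (blue) to 1 (red). H2-K1, H2-D1, Tap2 and Tapbp form a block with r of 0.73 to 0.93, and B2m and Erap1 form a pair with r = 0.91 that has negative r with Tapbp. Without Control 9, r in the block was 0.57 to 0.90. The r of B2m with Tapbp did not pass and was -0.27 without Control 9, against -0.64 with it.

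Whether H2-K1 differed more than the other 9 genes was also tested after the values were seen, so these tests are not independent of its call. In each colon the log2 CPM of another gene was taken from that of H2-K1, and the groups were compared by a two-sided exact permutation test over all 24310 splits. The difference rose in GWI colons by 0.15 against H2-D1 (exact permutation p = 0.00761, Benjamini-Hochberg adjusted over 9 comparisons p = 0.0228). It rose by 0.53 against H2-Q4 (exact permutation p = 0.00152, adjusted p = 0.0137), by 0.59 against B2m (exact permutation p = 0.0190, adjusted p = 0.0429) and by 0.79 against Nlrc5 (exact permutation p = 0.00605, adjusted p = 0.0228). For B2m, only 1 GWI colon lay above every Control colon in this difference. Control 9 had the lowest H2-K1 (585 CPM) and the highest B2m (876 CPM) of all 17 colons, and the test was not repeated without it. Against H2-T23, Tap1, Tap2, Tapbp and Erap1 the adjusted exact permutation p-values were 0.0611 to 0.466, with Tapbp alone on the other side of 0 (-0.11).

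The class I region holds many more heavy chain genes. Of 12 tested genes on that list, 3 were called higher and 1 lower, with a median log2 fold change of -0.02. The counts on this and the later lists stand beside 13.4% of all tested genes called higher and 13.5% called lower. No list was tested as a set. H2-Q1 went from 34.2 ± 9.38 to 72.2 ± 18.4 CPM, and 7 of 8 GWI colons lay above every Control colon (log2 fold change 1.08, SE 0.17, adjusted p = 0.000787 by edgeR's quasi-likelihood F test, Benjamini-Hochberg adjusted). H2-T3, which encodes the thymus leukemia antigen that intestinal epithelium carries and CD8 alpha homodimers bind, went from 69.3 ± 20.0 to 102 ± 23.6 CPM (log2 fold change 0.56, SE 0.20, adjusted p = 0.0465 by the edgeR quasi-likelihood F test and Benjamini-Hochberg adjustment). H2-Bl rose from 1.00 ± 0.330 to 2.497 ± 1.127 CPM and H2-T10 fell from 2.14 ± 0.509 to 1.44 ± 0.379 CPM, both from few counts. With the muscle minus epithelium score as a covariate, edgeR's quasi-likelihood test called none of these 12 heavy chain genes, while the log2 fold change was 0.67 for H2-Q1, 1.14 for H2-Bl, 0.32 for H2-T3 and -0.63 for H2-T10. The calls of H2-T3 and H2-T10 also ended without Control 6 and Control 7, at log2 fold changes of 0.56 and -0.57, and held in 6 and 8 of the 17 fits that left out 1 colon. Both ended with the leukocyte score too, at log2 fold changes of 0.39 and -0.51, and that of H2-T3 with upper-quartile factors (0.46).

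Heavy chain genes resemble each other, and reads from near-identical copies cannot always be placed. Of all runs of 100 bases in the transcripts of a gene, 1.0% of those of H2-K1, 3.6% of H2-D1, 3.2% of H2-T23 and 2.2% of H2-Q4 also occur in transcripts of another gene. The share is 8.1% for H2-Q1 and 7.1% for H2-T10, so their levels are less certain, while B2m, Tap1, Tap2, Erap1, Nlrc5 and H2-T3 share none. Of the class I-like genes, 10 were tested and 2 were lower, none higher by edgeR's quasi-likelihood test or the DESeq2 Wald test and 1 higher at an unadjusted p under 0.05. The lower genes were Mr1, which presents vitamin B metabolites to MAIT cells (10.1 ± 3.31 to 5.35 ± 1.96 CPM, log2 fold change -0.92), and Mill2 (4.96 ± 1.09 to 3.31 ± 0.547 CPM, log2 fold change -0.58). Both calls ended with the muscle minus epithelium score as a covariate, where the log2 fold changes were -0.10 for Mr1 and -0.08 for Mill2, while Azgp1 was called lower there (-1.27).

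Around tapasin work the chaperones and quality control of the endoplasmic reticulum. Of 11 tested genes on this list, 4 were higher and 1 was lower, with a median log2 fold change of 0.19. Calr, encoding calreticulin of the loading complex, was at 166, 390.0 and 481 CPM as lowest, median and highest in Control and at 382, 602 and 880 CPM in GWI colons. In 7 of 8 GWI colons it exceeded every Control colon (log2 fold change 0.70, SE 0.18, adjusted p = 0.00995 by edgeR's quasi-likelihood F test, Benjamini-Hochberg adjusted). Uggt1, the sensor of misfolded glycoproteins, went from 79.0 ± 12.3 to 116 ± 24.7 CPM, Ganab, a glucosidase subunit, from 165 ± 15.5 to 230 ± 24.8 CPM, and Sec61a1 of the translocon from 158 ± 21.3 to 216 ± 29.8 CPM. Sec61b, of the same translocon, fell from 77.7 ± 8.40 to 65.7 ± 4.50 CPM. With the muscle minus epithelium score as a covariate, 0 of the 11 genes were called by edgeR's quasi-likelihood test in either direction, with larger SEs. The log2 fold changes of the 5 genes called without it stayed near their size (Calr 0.69, Uggt1 0.47, Ganab 0.38, Sec61a1 0.38, Sec61b -0.31), while the list's median went from 0.19 to 0.06.

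Upstream of TAP, peptides come from proteasomes. In the immunoproteasome and PA28 list, all 6 log2 fold changes were below 0 and 1 gene was called lower, Pomp, the assembly factor (146 ± 32.1 to 103 ± 9.61 CPM, log2 fold change -0.51). The catalytic subunits Psmb8, Psmb9 and Psmb10 were at 30.8 ± 13.8, 19.6 ± 7.93 and 109 ± 27.5 CPM in Control and at 25.8 ± 9.22, 14.8 ± 2.11 and 105 ± 10.9 CPM in GWI colons, and none was called by edgeR's quasi-likelihood test. Psmb9 was called lower with limma-voom, with the muscle minus epithelium score and without Control 1. Tap1 and Psmb9 are neighbours in opposite directions whose exons share 212 bases. Among 4 constitutive counterparts, Psmb6 (127 ± 18.4 to 91.7 ± 5.69 CPM) and Psmb7 (120 ± 39.5 to 84.7 ± 8.91 CPM) were called lower. With the muscle minus epithelium score, Pomp, Psmb6 and Psmb7 stayed called lower, at log2 fold changes of -0.61, -0.46 and -0.92. Psmb7 was highest in Control 9 (210 CPM), and its log2 fold change was -0.35 without that colon, against -0.50 with it. Of 6 tested peptidases that trim or destroy peptides outside the endoplasmic reticulum, 0 were called by edgeR's quasi-likelihood test or the DESeq2 Wald test, 2 were called higher with limma-voom, and 1 was higher at an unadjusted p under 0.05. Without Control 9, Lnpep was called higher by edgeR's quasi-likelihood test (log2 fold change 0.43).

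Of 17 tested regulators of class I transcription, 6 were called higher, 5 log2 fold changes were below 0, and the list's median was 0.15 (0.05 with upper-quartile factors). Irf1, which binds the interferon response element of class I promoters, was at 72.4, 114 and 171 CPM as lowest, median and highest in Control and at 156, 171 and 201 CPM in GWI colons. All 8 GWI colons were above the Control median (log2 fold change 0.60, SE 0.13, adjusted p = 0.00480 by edgeR's quasi-likelihood F test, Benjamini-Hochberg adjusted). Irf7 went from 79.2 ± 27.0 to 136 ± 36.3 CPM, Irf2 from 60.5 ± 12.6 to 81.0 ± 7.84 CPM and Stat2 from 22.2 ± 5.20 to 29.6 ± 3.66 CPM. The NF-kB subunit genes Nfkb1 (65.2 ± 9.22 to 78.9 ± 7.60 CPM) and Nfkb2 (28.1 ± 7.54 to 41.3 ± 3.20 CPM) were higher too, although the call of Nfkb1 held in 9 of the 17 fits that left out 1 colon and ended with upper-quartile factors and with the leukocyte score. Each of these settings left 4 of the 6 calls, that of Stat2 also ending with the former and that of Irf7 with the latter. With upper-quartile factors, the log2 fold changes were 0.18 for Nfkb1 and 0.32 for Stat2, against 0.28 and 0.41 with TMM. With the leukocyte score they were 0.25 for Nfkb1 and 0.55 for Irf7, against 0.28 and 0.78 without it. Without Control 6 and Control 7, 5 of the 17 were called, with the call of Stat2 ended at a log2 fold change of 0.36. With the muscle minus epithelium score none was called by edgeR's quasi-likelihood test, while the list's median log2 fold change was 0.25 and those of Irf1, Irf2 and Nfkb2 were 0.43, 0.45 and 0.69.

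Of 13 tested interferon ligands, receptors and their signalling genes, 7 were called higher, and the list's median log2 fold change was 0.26. Ifngr1, the ligand-binding chain of the interferon gamma receptor, went from 166 ± 63.5 to 234 ± 29.6 CPM, with Control 1 highest of all at 322 CPM, and 4 of the 17 fits that left out 1 colon kept its call. Ifnar1 (34.1 ± 4.63 to 43.5 ± 2.53 CPM) and Ifnlr1 (7.35 ± 4.22 to 13.1 ± 4.37 CPM), receptor chains for interferons of types I and III, were higher. So were the kinases Jak1 (111 ± 9.44 to 133 ± 6.12 CPM) and Tyk2 (27.1 ± 3.99 to 34.6 ± 4.41 CPM) and the feedback inhibitor Socs3 (8.53 ± 2.55 to 14.7 ± 1.67 CPM). With upper-quartile factors the calls of Jak1 and Ifngr1 ended and Ifnar2 was called lower. The log2 fold changes of Jak1 and Ifngr1 were 0.16 and 0.41 there, against 0.26 and 0.50 with TMM. With the leukocyte score 4 genes were called, and the calls of Ifng, Ifngr1 and Ifnlr1 ended. Their log2 fold changes were 1.755, 0.54 and 0.90, against 2.11, 0.50 and 0.83 without the score. With the muscle minus epithelium score as a covariate none of the 13 was called by edgeR's quasi-likelihood test, the list median being 0.15, with 0.26 for Jak1, 0.15 for Ifnar1, 0.15 for Tyk2, 0.37 for Socs3 and 0.70 for Ifng. Without Control 6 and Control 7, 4 were called, with the calls of Ifng, Ifngr1 and Ifnlr1 ended at log2 fold changes of 1.83, 0.43 and 0.75. The call of Ifnlr1 held in 10 of the 17 fits that left out 1 colon.

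Ifng itself, the ligand, stood at 16.8 to 41.4 CPM in 8 Control colons, at 675 CPM in Control 9, and at 141, 467 and 559 CPM as lowest, median and highest in GWI colons. The groups were apart except for Control 9, which lay above every GWI colon. The log2 fold change was 2.11 (SE 0.73, adjusted p = 0.0394 by edgeR's quasi-likelihood F test, Benjamini-Hochberg adjusted), and 4.00 (SE 0.26, adjusted p = 9.99e-08) without Control 9. Without Control 6 and Control 7 the call ended (log2 fold change 1.83, adjusted p = 0.0972 by the same edgeR test). Of the 17 fits that left out 1 colon each, 3 kept the adjusted p of Ifng under 0.05, with a range of 9.99e-08 to 0.0649 (edgeR's quasi-likelihood F test under Benjamini-Hochberg adjustment), and the others did not. In the same colons, 11 markers of T and NK cells summed to 3.60 to 35.6 CPM. The first 3 entries of the table, Il4, Il6 and Chat, stand outside its alphabetical order, and Ifng stands in its place. Whether entries were changed or came from another source could not be checked from the counts, and the Ifng values hold only if they were not. By quantitative PCR, the authors' paper reports a significant increase of Ifng in GWI colons. H2-K1 of Control 9, at 585 CPM, was by contrast the lowest of all 17 colons.

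Of 15 tested genes on the list of interferon-response genes, 6 were called lower, 3 log2 fold changes were above 0, and the median log2 fold change was -0.41. Their relation with Ifng across colons was not tested. Gbp5 was at 3.13, 3.56 and 6.29 CPM as lowest, median and highest in Control and at 1.40, 1.73 and 2.73 CPM in GWI colons. No GWI colon reached any Control colon (log2 fold change -1.17, SE 0.19, adjusted p = 0.000733 by edgeR's quasi-likelihood F test, Benjamini-Hochberg adjusted). The same separation held for Ifit3 (13.6 ± 3.23 to 6.65 ± 2.04 CPM), and Gbp2, Gbp3, Gbp7 and Igtp were lower as well, with log2 fold changes of -0.76 to -0.53. The direction of Gbp5 differs from that in the authors' paper, which gives it as higher in GWI mice among inflammatory response genes. Of the 15, 1 was called lower with the muscle minus epithelium score as a covariate, Ifit3 (log2 fold change -0.785). The list's median was -0.44 there, with Igtp at -0.55, Gbp5 at -0.74 and Gbp2 at -0.28. With the leukocyte score 5 were called lower, the call of Igtp having ended (log2 fold change -0.46).

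MHC class II genes present peptides from outside the cell. Of 9 tested class II genes, 7 were called lower, with a median log2 fold change of -0.84. Without Control 6 and Control 7, 3 were called and the median was -0.71, with the calls of Cd74, Ciita, H2-Eb1 and H2-DMa ended, and with the leukocyte score 1 was called. Control 7 was the highest Control colon for all 7 called class II genes. The difference between class I and class II genes was not tested. Cd74, the invariant chain, was at 25.9, 74.0 and 157 CPM as lowest, median and highest in Control and at 29.6, 41.0 and 59.0 CPM in GWI colons. All 8 GWI colons were below the Control median, with Control 7 highest (log2 fold change -0.84, SE 0.26, adjusted p = 0.0238 by edgeR's quasi-likelihood F test, Benjamini-Hochberg adjusted). Ciita, the class II counterpart of Nlrc5, went from 2.76 ± 1.80 to 1.30 ± 0.534 CPM. H2-Aa, H2-Ab1, H2-Eb1, H2-DMa and H2-DMb1 had log2 fold changes of -1.19 to -0.67. None of the 9 class II genes was called by edgeR's quasi-likelihood test with the muscle minus epithelium score as a covariate, where the median was -0.58, with H2-DMb1 at -1.27, Ciita at -1.03, H2-Aa at -0.98 and Cd74 at -0.40. Of 7 tested genes on a list of receptors of T, NK and myeloid cells, not all of which bind class I molecules, Klra2, Pirb and Lilrb4a were called lower, from 3 to 33 counts per colon. All 3 calls ended with the muscle minus epithelium score, at log2 fold changes of -0.88, -0.74 and -0.99 against -0.87, -0.81 and -0.81 without it. With the leukocyte score, the calls of Pirb and Lilrb4a ended, at log2 fold changes of -0.51 and -0.80, and Klra2 was called lower (-0.96). The call of Klra2 held in 6 of 10 fits that left out 1 colon and kept the gene, and that of Pirb in 9 of 17. The call of Lilrb4a ended without Control 6 and Control 7, and Klra2 did not pass the filter there. Cd8a was at 2.64 CPM in Control and 2.60 CPM in GWI colons.

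**Figure D3:**
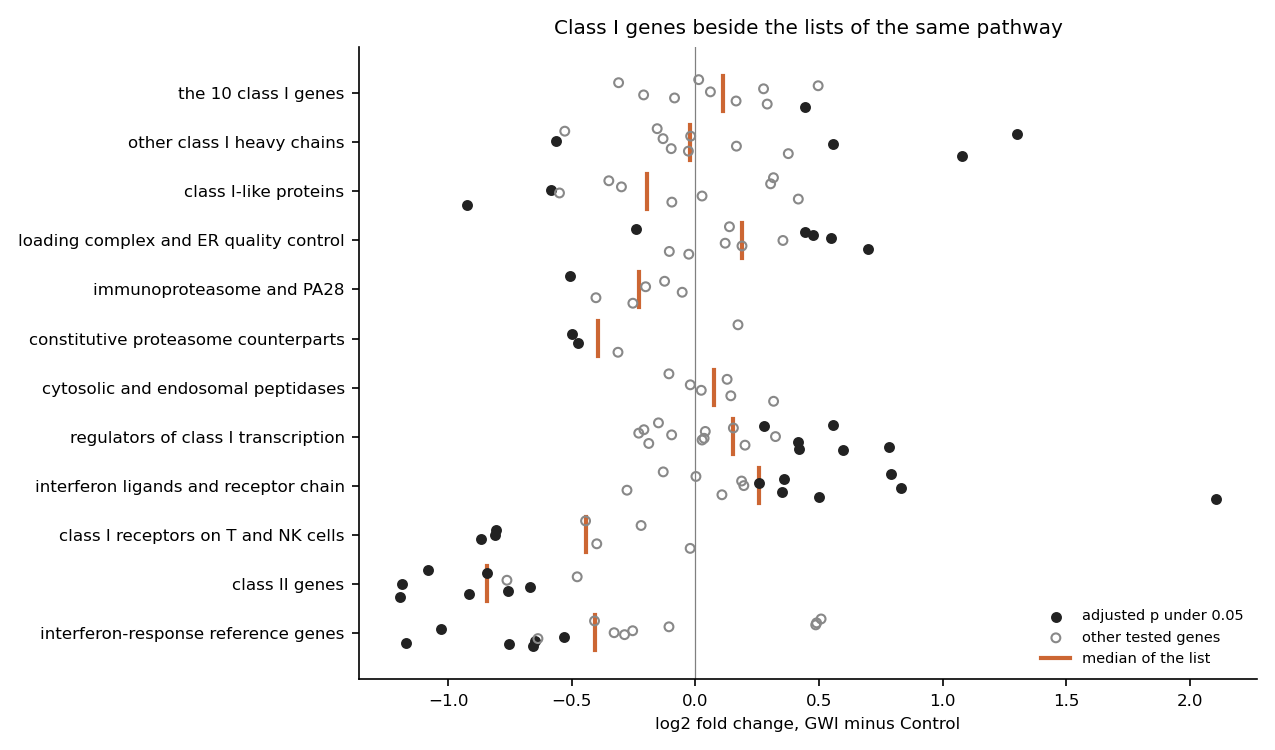
Log2 fold change, GWI minus Control, of each tested gene on the class I gene list and on 11 lists of the same or neighbouring pathways, filled where the adjusted p of edgeR's quasi-likelihood test is under 0.05, with the median of each list as an orange line. The class I genes have a median of 0.11, while the medians of class II genes (-0.84) and interferon-response genes (-0.41) lie below 0.

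Some markers of several cell types were called, beside 13.4% of all tested genes called higher and 13.5% called lower. No marker list was tested as a set. In bulk tissue, fewer cells of a type and less RNA per cell cannot be told apart. Smooth muscle markers summed to 3690 to 23920 CPM in Control and to 3658 to 11830 CPM in GWI colons, with Myh11 the most abundant, and 7 of 10 were called lower (2 to 10 with 1 colon left out). Of the 11 epithelial markers, 4 were called higher. The 10 leukocyte markers summed to 73.7 to 110 CPM in Control and to 70.5 to 100 CPM in GWI colons, with Ptpn6 the most abundant, 1 called higher and 4 lower. Macrophage markers summed to 71.3 to 164 CPM in Control and to 60.3 to 98.4 CPM in GWI colons, led by Lyz2, with 2 of 9 called lower. None of these genes was at 0 in every colon. Of 8 tested T and NK cell markers, led by Gzma in Control and by Lck in GWI colons, 0 were called by edgeR's quasi-likelihood test, by the DESeq2 Wald test or at an unadjusted p under 0.05. The muscle minus epithelium score lay largely apart between the groups, so a call that ended with it cannot be assigned to composition or to group. Beyond the fits with this score and the leukocyte score, the part of these cell types in the class I levels was not tested.

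Markers of endothelium (3 of 9 lower), dendritic cells (1 of 3 lower), fibroblasts (1 of 8 lower), and enteric neurons and glia (1 of 8 lower) were led by Pecam1, Zbtb46, Col3a1 and Uchl1. For fibroblasts and for enteric neurons and glia, the share called lower lies below that of all tested genes (13.5%). Markers of B and plasma cells (1 of 4 higher) were led by Sdc1, which epithelium expresses too, and those of adipocytes (1 of 7 higher) by Fabp4. Of 6 tested markers of the small intestine, led by Fabp2, 3 were called lower, Anpep, Fabp6 and Lyz1, for which Control 6 and Control 7 were far above the other colons.

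RefSeq promoter windows of build GRCm38.p6 (250 bases before to 50 after the start of a gene) were matched for 8 of the 10 genes, and none was used for Tap2 and Nlrc5. The letters GAANNGAAA, an interferon-type element, were searched on both strands, as were GGGATTCCC, an NF-kB type element, CCAAT and TGACG, which are parts of the elements for NF-Y and for factors of the CREB family. Of all 32851 windows of this length, 7.52% hold GAANNGAAA, 0.35% GGGATTCCC, 37.41% CCAAT and 20.81% TGACG. Among the 8 genes, GAANNGAAA was in 3 (H2-K1, H2-D1 and H2-Q4), GGGATTCCC in 2 (H2-K1 and H2-D1), CCAAT in 7 and TGACG in 5, and Erap1 held none of the 4. A match describes letters only and is no sign of binding.

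The run from the NF-kB type to the interferon-type letters, with these letters in capitals (the latter as TTTCNNTTC on the strand shown), lies at chr17:34000429-34000457 on the minus strand for H2-K1 and at chr17:35262924-35262952 on the plus strand for H2-D1. The 29 bases differ at 1 position between the genes.
H2-K1: GGGATTCCCcatctccacagTTTCACTTC
H2-D1: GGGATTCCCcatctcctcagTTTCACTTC

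Longer stretches upstream of the start, 5′ to 3′ on the strand of the gene and with all 4 kinds of letters in capitals, are shown for H2-K1 (chr17:34000349-34000467, minus strand), for H2-Q4 (chr17:35379454-35379576, plus strand) and for B2m (chr2:122147599-122147648, plus strand). Only exact letters were searched, so windows without a match may hold related elements, as that of H2-Q4 does with gggatttccc just before its stretch. No relation of these letters with the levels was tested. ATTGG is CCAAT read on the other strand.
H2-K1: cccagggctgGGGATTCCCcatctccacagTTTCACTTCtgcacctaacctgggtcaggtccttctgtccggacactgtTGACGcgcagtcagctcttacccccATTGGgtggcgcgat
H2-Q4: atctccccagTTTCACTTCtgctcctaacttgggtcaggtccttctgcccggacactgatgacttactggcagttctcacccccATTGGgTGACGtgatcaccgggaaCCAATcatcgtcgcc
B2m: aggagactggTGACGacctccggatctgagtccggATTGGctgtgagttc

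Outside the 10 class I genes, the tested genes whose levels most resembled the mean z-score of these 10 over 17 colons, with group means removed, were named by r alone and without a test. Tapbpl, which encodes the tapasin-related peptide editor TAPBPR, was first (r = 0.88, 42.0 CPM in Control and 41.3 CPM in GWI colons). It was followed by Camk2n1 (0.85), Vsig10 (0.84), Commd5 (0.82), Rhoh (0.82), Unc93b1 (0.82), Arhgap27os2 (0.81), Cmpk2 (0.80), Aup1 (0.80) and Parp10 (0.79). Of these 10 genes, Vsig10, Unc93b1 and Parp10 were called higher in GWI colons by edgeR's quasi-likelihood F test, Benjamini-Hochberg adjusted (adjusted p = 0.00283, 0.0107 and 0.0104), and the other 7 were not.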

How the data were processed

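The table used here holds gene counts for 9 Control and 8 GWI colons. The authors deposited it as whole counts per gene and colon. Their processing notes name Trimmomatic 0.36 for trimming, STAR 2.5.2b for mapping to GRCm38, and DESeq2; their methods name featureCounts for counting. The annotation release and the strand setting are not stated, so genes that overlap on opposite strands cannot be told apart there: Erap1 with Cast (834 exon bases), Tapbp with Gm19412 (904), Tap2 with Gm15821 (533) and Gm20496 (165), H2-Q4 with Gm11131 (496), Tap1 with Psmb9 (212) and Nlrc5 with 9330175E14Rik (78). Columns were matched to samples by their labels, with 0 left over. Some column names share a prefix whose meaning is not stated. It could mark cages or litters, and no fit accounts for it: apart from the replicate block, all 17 colons count as independent. The 48 entries with a repeated symbol were kept.

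In R 4.3.3, edgeR 4.0.16 removed genes with low counts (filterByExpr), computed TMM factors, and compared the groups by its quasi-likelihood functions glmQLFit, with robust estimation, and glmQLFTest. The Benjamini-Hochberg family was all 14146 genes kept. The code was tested on simulated data. Alternatives were DESeq2 1.42.0, limma 3.58.1, other scaling and filters, marker scores as covariates, a replicate block, and each colon left out in turn. Log2 CPM had a prior count of 2, or 0.5 as an alternative. Permutation tests were two-sided, with 100000 resamples or exact, in Python 3.11.15. Positions and exon lengths are those of GENCODE M21, promoters those of RefSeq GRCm38.p6.

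The 10 genes and all lists were chosen with earlier results of these data known. Genes are named if they are among the 10, are on a pathway list with an adjusted p under 0.05, are Ifng, Irf1, Psmb8, Psmb9 or Psmb10, or are among the 10 most like the class I genes. Also named are Cd8a and, for a call in an alternative fit, Azgp1, Ifnar2 and Lnpep. Other list genes called only in an alternative fit, such as Psmb5, Hspa5 and Irgm2, are not described. The small intestine genes that set Control colons apart, the fit without Control 6 and Control 7, the pairwise correlations and the comparisons of H2-K1 with the other 9 genes were chosen after the values were seen.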

Additional observations from a re-analysis of the deposited data

Results flagged for a closer look

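In 24 of 136 groups of 8 or 9 colons, the highest or lowest colon lay farther from its nearest neighbour than Dixon's 95% limit for a gap relative to the range. Chance alone gives about 1 in 20 groups where values are normal and groups independent. Here the groups share the same colons and normality was not checked, so whether 24 exceeds chance was not tested. Values are in CPM, with the range of the other colons of the same group in brackets.

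Control 1 stood apart for Ifngr1 at 322.2 (123.7 to 203.2), Ifnlr1 at 18.26 (4.416 to 7.501), Jak1 at 132.2 (100.5 to 116.2) and B and plasma cells markers as a sum at 568.7 (218.3 to 377.4). Control 6 stood apart for Gbp7 at 20.42 (11.48 to 15.79). Control 7 stood apart for H2-Aa at 100.7 (16.42 to 40.9), Cd74 at 156.6 (25.86 to 88.9) and Ciita at 6.953 (1.307 to 4.101). Control 8 stood apart for Tap1 at 39.81 (13.45 to 24.36), Nlrc5 at 4.879 (1.922 to 3.346), Igtp at 20.14 (10.74 to 14.15), Psmb8 at 62.44 (10.93 to 36.23) and Psmb9 at 38.1 (8.97 to 20.46). Control 9 stood apart for Calr at 165.8 (328.1 to 481.0), Psmb7 at 210.4 (72.33 to 141.3) and Ifng at 674.6 (16.77 to 41.37). GWI 1 stood apart for H2-Aa at 28.73 (10.49 to 18.62). GWI 5 stood apart for B2m at 277.2 (391.2 to 455.4). GWI 7 stood apart for Sec61b at 55.94 (64.78 to 72.02), Nfkb2 at 48.32 (38.68 to 42.82) and adipocytes markers as a sum at 809.9 (89.95 to 363.3). GWI 8 stood apart for Nlrc5 at 4.875 (1.433 to 2.207), Pomp at 124.3 (91.77 to 107.1) and Gbp3 at 15.22 (5.446 to 9.626).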

How the results depend on the processing

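Of the 10 class I genes, 1 was called higher and 0 lower by edgeR's quasi-likelihood test. At an unadjusted p under 0.05 these numbers were 3 and 0, against 5851 of all 14146 genes in either direction. The number called higher was 0 with upper-quartile factors, with the muscle minus epithelium score, with the leukocyte score and without Control 6 and Control 7, 2 with the DESeq2 Wald test and 3 with limma-voom. With 1 colon left out it was 1 to 3. The number called lower was 1 with the muscle minus epithelium score (B2m) and 0 to 1 with 1 colon left out (Nlrc5, without GWI 8).

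Over all genes, 1889 were higher and 1903 lower. The counts were 1214 and 2992 with upper-quartile factors, 3901 and 4175 with limma-voom, and 442 and 831 with the muscle minus epithelium score. With 1 colon left out they were 1472 to 2523 and 1309 to 2295.

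With the replicate block, 0 class I genes were called higher, and 1404 of all genes were higher and 814 lower (63.3% of calls higher). Samples with the same replicate number share only that number, so this fit has no design behind it.

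Signs of log2 fold changes turned for Tap1 with upper-quartile factors (-0.0339) and the muscle minus epithelium score (-0.0840), for Erap1 with upper-quartile factors (-0.0785), the muscle minus epithelium score (-0.457) and the leukocyte score (-0.0412), for H2-T23 with the muscle minus epithelium score (-0.0487) and for B2m with limma-voom (0.0443). With 1 colon left out, the log2 fold change was -0.0124 to 0.216 for Tap1, -0.0586 to 0.139 for Erap1 and -0.102 to 0.00870 for Psmb10, which turned positive without Control 2 or Control 8.

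Nlrc5 correlated with 0 of 9 genes past the threshold over 17 colons, and with 4 without the 2 colons farthest from its median.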
